A study of Mus musculus with 4 samples.

Results

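The 48 genes described here are interferon-stimulated genes and genes of the major histocompatibility complex (MHC) class I antigen presentation pathway. They were taken by name from the gene names of the array, and all 48 were found among its 31806 gene names. Their RNA was measured in mouse embryonic fibroblasts (MEFs), primary cells grown from embryos, on 4 single-color Agilent whole-genome arrays that lay on 1 slide. The question of the study was what cells lose without Cyclin G1 (CycG1, gene Ccng1) or Cyclin G2 (CycG2, gene Ccng2), a pair of cyclins that take part in the response to DNA damage. The arrays held RNA of G2KO MEFs (CycG2-/-), WT MEFs paired with them (CycG2+/+), DKO MEFs (CycG1-/-CycG2-/-) and WT MEFs paired with those (CycG1+/+CycG2+/+). Each label had 1 array. All MEFs came from C57BL/6J mice, grew, by the study's methods, in DMEM with serum, antibiotics and 2-mercaptoethanol, and were harvested during logarithmic growth. The deletions were constitutive, with all protein-coding exons of Ccng1 removed in the DKO line, and how many embryos each RNA came from is not given in the sources used here. The paper attributes higher Xist RNA in G2KO MEFs than in WT to the female origin of the G2KO MEFs. Sex may therefore differ along with genotype in that pair, and its part in the values was not tested. The labels of these samples name no interferon, virus or DNA-damaging agent.

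Type I interferons are secreted when a cell senses foreign nucleic acid. They act through a complex that holds STAT2 and IRF9 and binds the interferon-stimulated response element (ISRE) of target genes. Interferon gamma acts through a different site called GAS. The products of these target genes block viruses, sense viral RNA, or cut proteins into peptides and load them onto MHC class I. MEFs respond to interferon and are widely used to study it.

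Because each label had 1 array, no difference below has a replicate check, and no p-value is given. The array compared with the array labelled with the same genotype, that is WT with WT, serves as the measure of how far MEF preparations lay apart. It does so only if the labels of the G2KO pair hold, and these are in doubt, as given below. A level is the processed signal of a gene's probe divided by the 75th percentile of its array, so a level of 1 lies at that percentile. A ratio between arrays needs a probe well above background (here "detected") on 1 or both of them. For a probe dim on 1 array, the dimmest detected signal of that array, or the probe's own if brighter, took its place, which makes the ratio a limit, written "at least". Of the 48 genes, 36 were above background on the array labelled G2KO, 37 on the array labelled WT in that pair, 42 on the DKO array and 38 on its WT array. In the same order of arrays, 68.2%, 68.5%, 72.2% and 65.0% of all 39397 probes were above background. On all 4 arrays 33 were measured, Oasl2, Mx2 and Xaf1 on 3, Ifit1, Ifi44, Psmb9 and Tap1 on 2, and Oas1a, Oas2, Oasl1 and Rsad2 on 1. Oas1g, Oas3, Mx1 and Cmpk2 were not well above background on any array. Only 8 genes lay over the 75th percentile on every array, namely Ifitm3, Irgm1, Psmb10, Tapbp, B2m, H2-K1, H2-D1 and Samhd1.

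The targeted genes were read first. Ccng1 had levels of 1.98 on the array labelled G2KO, 9.45 on the array labelled WT of that pair, and 1.66 on the WT array of the DKO pair, and it was dim on the DKO array, at least 228-fold below its WT. The Ccng2 probe gave levels of 0.0910, 0.104, 0.0619 on DKO and 0.0806 on its WT array, so it did not separate the knockouts from WT. The SD of log2 ratios over all genes was 1.20 between the WT arrays and 0.68 between the array labelled G2KO and the WT array of the DKO pair. Pdgfra, a fibroblast marker, had a level of 1.75 on the array labelled G2KO. Its probe was dim on the array labelled WT of that pair, for a log2 ratio of 7.93 or more. The paper lists Pdgfra as lower in G2KO MEFs than in WT, the opposite direction. The methods describe dye swaps for G2KO MEFs, and whether that list came from these arrays is not known. The labels of the G2KO pair are therefore in doubt. These arrays are called by their labels throughout, and every direction drawn from that pair rests on the labels.

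Cell type markers differed between the MEF preparations as well. All 7 mesothelial markers were above background on the DKO array, with a summed level of 146, against summed levels from 0.571 to 1.56 and 2 or 3 detected markers on the other arrays. Fibroblast markers were detected on every array (9 or 10 of 10, summed level 378 to 638), with Col3a1, Pdgfra, Pdgfrb, Thy1 and Postn at least 2-fold lower on the DKO array than on its WT. Of the macrophage markers 8 or 9 of 11 were detected on each array (summed level 12.5 to 23.6), and Aif1 and C1qa were dim on all 4. Itgam alone gave 80.6% to 94.1% of that sum, and in DKO over WT Cd14 was 8.28-fold higher, Cd68 at least 3.00-fold higher and Lyz1 4.48-fold lower. The summed level of dendritic cell markers was 11.9 to 24.2 with Itgax and Cd209a dim on all 4, that of lymphocyte markers 1.30 to 2.13 with Cd3d and Ms4a1 dim, and that of endothelial markers 3.08 to 4.44 with Emcn dim. Siglech gave nearly all of the dendritic cell sum, which was 0.0391 to 0.0874 without it, and Kdr nearly all of the endothelial sum, which was 0.0752 to 0.115 without it. In bulk RNA, fewer cells of a type and less RNA per cell cannot be told apart. The part of the mesothelial, fibroblast and macrophage marker differences in the values of DKO MEFs below was not tested.

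**Figure D1:**
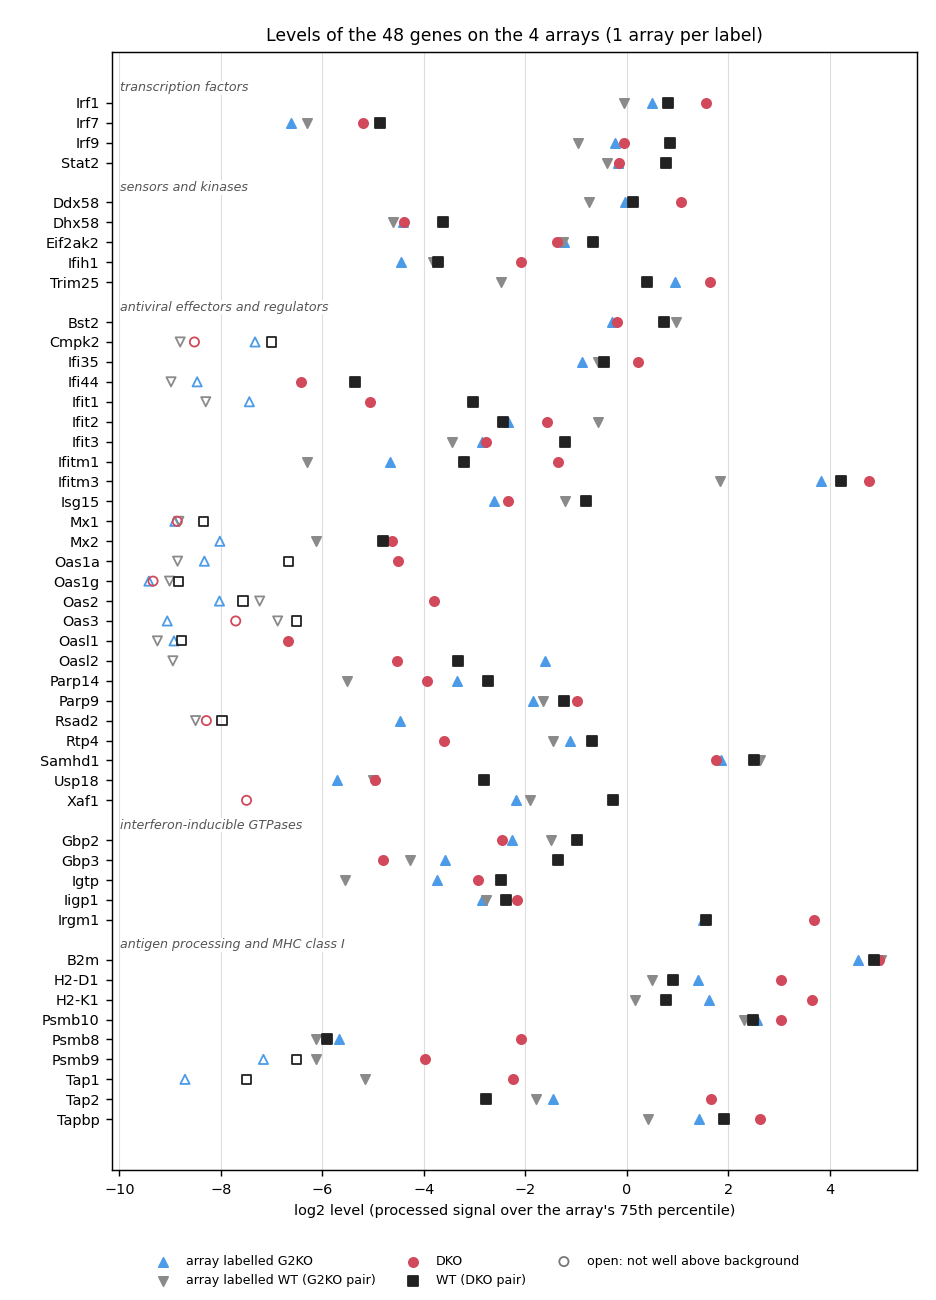
Levels of the 48 genes on the 4 arrays, grouped by role. The horizontal axis is the log2 level, each symbol is 1 array, and open symbols are not well above background. Red circles (DKO) lie to the right of the other symbols for Psmb8, Psmb9, Tap1, Tap2, H2-K1, H2-D1 and Irgm1, while black squares (WT of the DKO pair) lie to the right for Ifit1, Ifit3, Usp18, Gbp3, Rtp4 and Xaf1.

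DKO MEFs were compared with their WT. Of 42 genes compared, 12 were at least 2-fold higher in DKO and 11 at least 2-fold lower, against 10.6% and 9.61% of all genes. At 4-fold the counts were 9 higher and 5 lower, against 4.04% and 4.03% of all genes. The antigen processing genes made up 6 of the 12 higher genes and none of the lower ones, whereas antiviral effectors made up 9 of the 11 lower ones, Xaf1 among them, and 3 of the 12 higher ones (Oas1a, Oas2 and Ifitm1). The median log2 ratio over the 42 genes was 0.20 (0.03 over all genes) with an SD of 2.16 (1.28 over all genes). The range ran from -6.82 for Xaf1 to 4.42 for Tap2.

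Among the antigen processing genes, 9 of 9 had a log2 ratio above 0 in DKO over WT, with a median of 2.53. Tap2, a subunit of the transporter that carries peptides into the endoplasmic reticulum, had levels of 0.365 on the array labelled G2KO, 0.290 on the array labelled WT of that pair, 3.15 on DKO and 0.147 on its WT. The DKO level was 21.5-fold above its WT and stood alone above the other 3. Tap1, the partner subunit, was dim on the array labelled G2KO and on the WT array of the DKO pair, at 0.0281 on the other WT array and at 0.213 on DKO, which put DKO at least 20.7-fold above its WT. The Tap1 probe is printed 10 times on the array, and the SD of the log2 level among its spots was 0.10 on DKO.

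The immunoproteasome subunits replace the constitutive catalytic subunits of the proteasome after interferon exposure. Psmb8 had levels of 0.0198, 0.0143, 0.237 on DKO and 0.0167 on its WT, a 14.2-fold difference within the DKO pair. Psmb9 was at 0.0634 on DKO and dim on its WT array, at least 5.77-fold apart, with 0.0143 on the array labelled WT in the G2KO pair and a dim value on the array labelled G2KO. Psmb10, which lies on chromosome 8 and not in the MHC, had levels of 5.91, 4.99, 8.27 and 5.65, and DKO was only 1.46-fold above its WT. The constitutive subunits Psmb5, Psmb6 and Psmb7 had log2 ratios of -0.02, 0.82 and -0.15 in DKO over WT, none past 2-fold.

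The MHC class I heavy chains H2-K1 and H2-D1, which present the peptides, also had their highest level on DKO, followed by the array labelled G2KO. H2-K1 had levels of 3.1, 1.11, 12.6 on DKO and 1.71 on its WT, a 7.38-fold difference. A second H2-K1 probe read 1.17, 0.859, 4.23 and 1.17, so its log2 ratio of 1.85 in DKO over WT lay 1.03 below that of the first. H2-D1 had levels of 2.67, 1.41, 8.25 and 1.88, and DKO was 4.38-fold above its WT. Class I genes are closely alike in sequence, and the share of other class I transcripts in these probes is not known. B2m, the light chain that pairs with every class I heavy chain, had levels of 23.5, 32.2, 31.6 on DKO and 29.2 on its WT, with a log2 ratio of 0.11 in the DKO pair. Tapbp (tapasin), which holds empty class I at the transporter, had levels of 2.69, 1.33, 6.21 and 3.77, a log2 ratio of 0.72.

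Tap1, Tap2, Psmb8 and Psmb9 are neighbours in the class II region of the MHC on chromosome 17, with probes between positions 34319174 and 34353175 of the mm9 build. Psmb9 and Tap1 are transcribed away from each other from starts that lie 225 bases apart. The sequence between them, from RefSeq on GRCm38.p6, chr17:34187331-34187555 on the plus strand, is shown because both genes had their highest level on DKO.

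Psmb9 to Tap1: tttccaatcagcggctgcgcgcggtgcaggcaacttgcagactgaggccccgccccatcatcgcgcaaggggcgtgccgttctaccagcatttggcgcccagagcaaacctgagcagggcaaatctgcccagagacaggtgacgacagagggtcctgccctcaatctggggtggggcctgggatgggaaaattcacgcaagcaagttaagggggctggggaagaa

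The motifs searched further below had 0 matches in this stretch. They were searched in exact letters, so this does not show that the stretch lacks similar sites. Other genes of the region within 100 kb of the Tap1 probe did not all share the pattern. H2-DMb1, a class II peptide-loading gene, did share it. Its levels were 0.0549, a dim value, 0.210 on DKO and 0.0228 on its WT, a log2 ratio of 3.20 in the DKO pair. Brd2, a bromodomain gene, had levels of 11.1, 12.2, 8.33 and 9.24, and H2-DMa had 0.0763, 0.0729, 0.0613 and 0.0942. Both were lowest on DKO. H2-Ab1, a class II gene, was detected on DKO alone, at 0.0119, which put DKO only at least 1.16-fold above its WT. H2-Ob stayed between 0.0201 and 0.0299, and H2-Aa, H2-Oa and H2-DMb2 were dim on all 4 arrays.

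**Figure D2:**
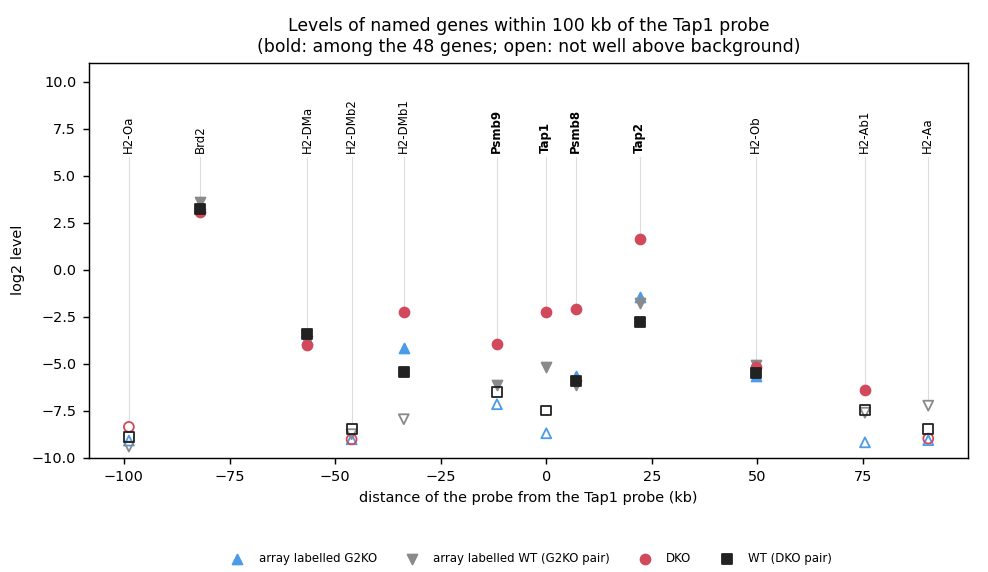
Levels of named genes by the distance of their probe from the Tap1 probe in kb. The vertical axis is the log2 level, each symbol is 1 array, open symbols are not well above background and names in bold are among the 48 genes. The DKO symbol stands above the other arrays for Psmb9, Tap1, Psmb8, Tap2 and H2-DMb1 (levels of 0.0634, 0.213, 0.237, 3.15 and 0.210), while the 4 symbols of Brd2 and H2-Ob lie close together.

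The interferon-inducible GTPases, some of which attack the vacuoles of intracellular parasites, split within the DKO pair. Irgm1 had levels of 2.85, 2.98, 12.9 on DKO and 2.97 on its WT. The 3 arrays other than DKO were nearly equal, and DKO was 4.34-fold above its WT, with log2 ratios of 2.12 and 2.10 from its probes. Gbp3 had levels of 0.0836, 0.0515, 0.0356 on DKO and 0.393 on its WT, a log2 ratio of -3.46 in DKO over WT, and that WT array was high against all others. Gbp2 had levels of 0.209, 0.353, 0.183 and 0.508, a 2.77-fold lower value in DKO. Igtp had levels of 0.0752, 0.0212, 0.131 and 0.18, and Iigp1 had 0.139, 0.147, 0.224 and 0.192, with log2 ratios of -0.45 and 0.22.

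Among the antiviral effectors and regulators, 19 of 25 were compared between DKO and its WT, with a median log2 ratio of -0.92. For DKO over the array labelled WT in the G2KO pair, 20 were compared and the median was 0.69, so its sign depended on the WT array. Ifit1, which binds viral RNA, was dim on both arrays of the G2KO pair, at 0.0299 on DKO and at 0.122 on its WT, a 4.08-fold lower value in DKO. Ifit3, its partner, had levels of 0.138, 0.0922, 0.146 and 0.432, and DKO was 2.96-fold lower. For both genes the WT array of the DKO pair was the highest of the 4, and DKO was not below the other WT array. Usp18, which removes ISG15 from proteins and damps type I interferon signalling, had levels of 0.0190, 0.0312, 0.0323 and 0.142, with the same order at the top and a 4.39-fold lower value in DKO.

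Isg15, a ubiquitin-like modifier, had levels of 0.163, 0.428, 0.199 on DKO and 0.572 on its WT. By label, each knockout array lay below both WT arrays, 2.88-fold below for DKO and 2.62-fold below for the array labelled G2KO in their own pairs. The dimmer second probe of Isg15 gave a log2 ratio of -1.30 in DKO, beside -1.52 for the first. Rtp4, an interferon-induced receptor transporter, had levels of 0.458, 0.367, 0.0827 and 0.625, and DKO was 7.56-fold below its WT and below every other array. Bst2 (tetherin), which holds budding virus at the cell surface, had levels of 0.823, 1.97, 0.876 and 1.66, again lower on both knockout arrays than on both WT arrays, by 1.89-fold in the DKO pair. For Isg15 and Bst2 this order does not hold if the labels of the G2KO pair are exchanged.

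By its brightest probe, Xaf1 showed the largest difference of the DKO pair among the 48 genes. That probe read 0.220, 0.267, a dim value on DKO and 0.826 on its WT, at least 113-fold lower in DKO. Its other probe read 0.0400, 0.0483, 0.173 on DKO and 0.134 on its WT, a log2 ratio of 0.37, so the probes of Xaf1 disagreed by at least 7.19 on the log2 scale and its direction is uncertain. Oasl2, Parp14 and Ifi44 were 2.30-fold, 2.30-fold and 2.07-fold lower in DKO than in its WT. Samhd1, which depletes nucleotides, had levels of 3.64, 6.15, 3.41 and 5.73, higher by label on both WT arrays than on both knockout arrays but under 2-fold within each pair, and this order too does not hold with the labels exchanged. Ifi35 had levels of 0.545, 0.673, 1.17 and 0.730, and Parp9, an ADP-ribosyltransferase partner, had 0.280, 0.319, 0.506 and 0.422, with log2 ratios of 0.68 and 0.26 in the DKO pair.

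Some effectors went the other way. Oas2, an enzyme that makes the activator of RNase L, had a level of 0.0714 on DKO and was dim on the other 3 arrays, at least 6.97-fold above its WT. Oas1a, of the same family, was at 0.0437 on DKO and dim on the others, at least 4.26-fold above its WT. Oasl1 was above background on DKO alone, at 0.00984. That level lay below the dimmest detected level of the WT array of the DKO pair (0.0102), so Oasl1 gave no ratio in that pair. Oas1a and Oas1g are close copies, and cross-hybridisation between them is not known. Ifitm1, which blocks entry of enveloped viruses, had levels of 0.0392, 0.0126, 0.394 and 0.108, 3.64-fold higher in DKO. Rsad2 (viperin) was detected on the array labelled G2KO alone, at 0.0452.

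Sensors and kinases were compared in full. Ifih1 (MDA5), a sensor of long double-stranded RNA, had levels of 0.0459, 0.0711, 0.235 and 0.0755, and DKO was 3.12-fold above its WT. Trim25, which ubiquitinates RIG-I, had levels of 1.92, 0.18, 3.14 and 1.32, and DKO was 2.37-fold above its WT. Ddx58 (RIG-I), which senses short viral RNA, had levels of 0.971, 0.597, 2.09 and 1.1 by its brightest probe, with a log2 ratio of 0.94 by that probe and 0.17 by the other. Dhx58 (LGP2), a regulator of these sensors, had levels of 0.0472, 0.0408, 0.0478 and 0.0808, and Eif2ak2 (PKR), which stops translation on double-stranded RNA, had 0.427, 0.419, 0.386 and 0.635, so both were highest on the WT array of the DKO pair and under 2-fold apart within that pair. None of the 4 transcription factors passed 2-fold in this pair. Stat2 and Irf9, of the complex that binds the ISRE, had levels of 0.889, 0.769, 0.895, 1.72 and of 0.854, 0.514, 0.966, 1.80, and for both the WT array of the DKO pair was the highest. Irf7, a driver of interferon alpha genes, had levels of 0.0101, 0.0127, 0.0272 and 0.0343, lower on both arrays of the G2KO pair than on both of the DKO pair. Irf1, which acts on antigen presentation genes, had levels of 1.42, 0.961, 2.94 and 1.77, highest on DKO with a log2 ratio of 0.74.

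The arrays labelled WT differed from each other for these genes, and for fibroblast markers. If the labels of the G2KO pair are exchanged, this comparison is not between arrays of the same genotype. Of 10 fibroblast markers 5 were at least 2-fold higher on the WT array of the DKO pair and none lower, with Pdgfra at least 729-fold, Thy1 133-fold, Postn 38.2-fold and Col3a1 16.9-fold higher, and their part in the values of this comparison was not tested. Of 40 genes compared, 17 were at least 2-fold higher on the WT array of the DKO pair than on the array labelled WT in the G2KO pair and 2 (Ifit2 and Tap1) lower, against 11.7% and 9.92% of all genes. At 4-fold the counts were 10 higher and 0 lower, against 4.63% and 2.76% of all genes. The median log2 ratio was 0.82, beside -0.08 over all genes, and 32 of the 40 lay above 0. Antiviral effectors gave 10 of the 17 higher genes. Ifit1 was at least 17.0-fold higher, Oasl2 at least 14.0-fold, Ifitm1 8.57-fold, Igtp 8.49-fold, Gbp3 7.64-fold, Trim25 7.36-fold and Parp14 6.90-fold. Irf7, Irf9 and Stat2 were also past 2-fold, with log2 ratios of 1.43, 1.81 and 1.16. Antigen processing genes had a median of 0.18, with Tapbp 2.82-fold higher and Tap1 at least 2.74-fold lower.

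**Figure D3:**
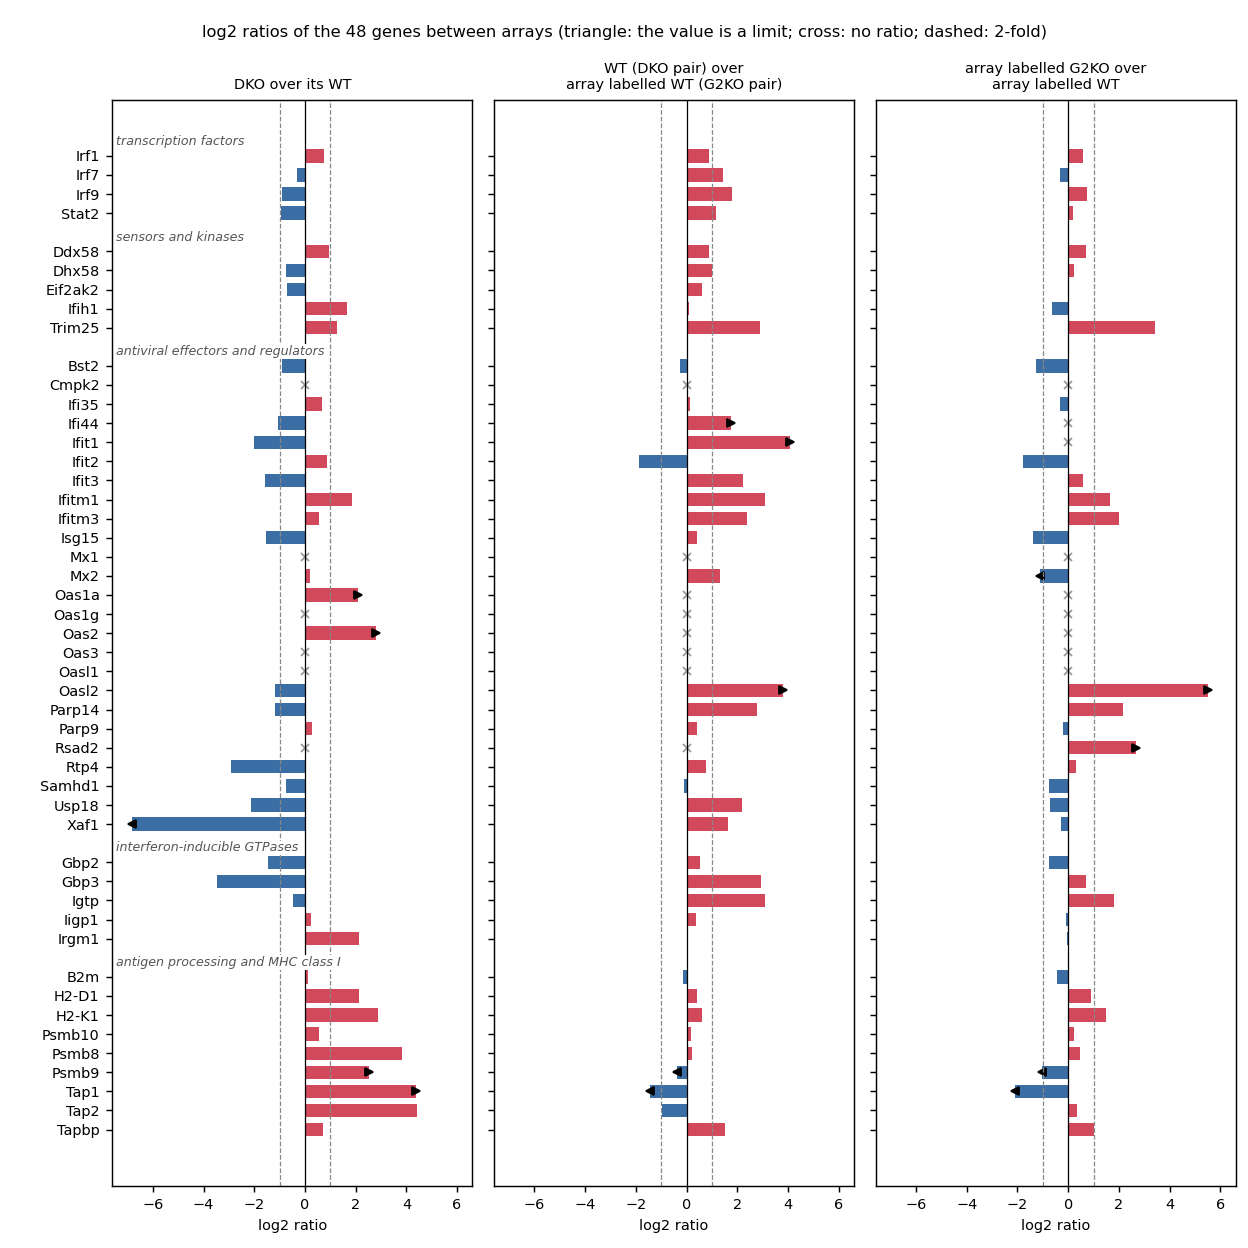
log2 ratios of the 48 genes in 3 comparisons (DKO over its WT, the WT array of the DKO pair over the array labelled WT in the G2KO pair, and the array labelled G2KO over the array labelled WT). Bars are ratios of single arrays, triangles mark limits, crosses mark genes with no ratio and dashed lines mark 2-fold. In the left panel the antigen processing bars all point right, up to 4.42 for Tap2, and in the middle panel most effector bars point right.

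The WT array of the DKO pair is the denominator of the DKO ratios and the numerator of the ratios between WT arrays, so the lower values in DKO and the higher values in that WT share an array. DKO was therefore also set against both WT arrays at once. On this measure 12 of 43 genes lay at least 2-fold above both WT arrays and 3 at least 2-fold below both, against 6.96% and 3.94% of all genes. The 12 were Psmb8, Psmb9, Tap1, Tap2, H2-K1, H2-D1, Irgm1, Oas1a, Oas2, Ifitm1, Ifih1 and Trim25, and the 3 were Isg15, Rtp4 and Xaf1. The other probe of Xaf1 was higher on DKO than on both WT arrays (log2 ratios of 0.37 and 1.85), and with the mean over a gene's probes 2 genes lay below both. Antiviral effectors gave 3 of the 12 and all 3 of the lower genes. With the labels of the G2KO pair exchanged, a comparison chosen after seeing the data, DKO lay at least 2-fold above its WT and the array labelled G2KO for 11 of 44 genes, the 12 without Trim25, and below both for 4 (Oasl2, Gbp3, Rtp4 and Xaf1), against 8.33% and 5.94% of all genes. Ifit1, Oasl2 and Parp14, lower in DKO than in its own WT, were higher in DKO than on the array labelled WT in the G2KO pair, at least 4.17-fold, at least 6.09-fold and 3.00-fold. Against that WT array alone, 22 of 43 genes were at least 2-fold higher in DKO and 5 lower, beside 14% and 11.8% of all genes, with 33 of 43 log2 ratios above 0.

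**Figure D4:**
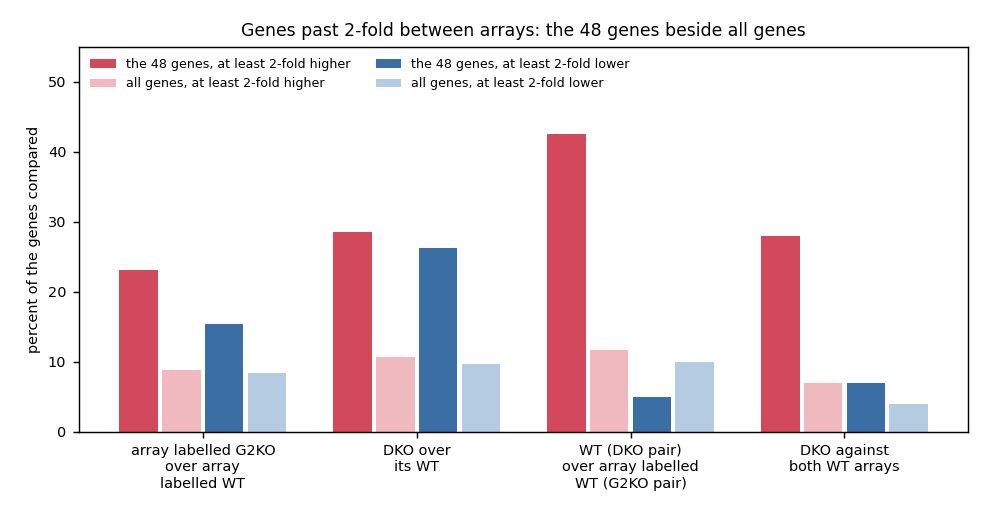
Percent of genes at least 2-fold higher (red) or lower (blue) between arrays. Dark bars are the 48 genes, as far as they could be compared, and pale bars are all genes, in 4 comparisons. The tallest bar is 42.5%, for genes higher on the WT array of the DKO pair than on the array labelled WT in the G2KO pair, and in DKO against both WT arrays the bar for higher is 27.9% and for lower 6.98%.

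The array labelled G2KO was compared with the array labelled WT. Of 39 genes, 9 were at least 2-fold higher and 6 lower, against 8.74% and 8.37% of all genes, and 4 and 1 passed 4-fold, against 3.71% and 2.02%. Without scaling between arrays the counts at 2-fold were 15 and 2, against 17.1% and 3.40% of all genes. The median log2 ratio was 0.21, beside -0.17 over all genes. Fibroblast markers differed in this pair too, 4 of 10 past 2-fold toward the array labelled G2KO and none the other way. Their log2 ratios were 6.85 for Thy1, 4.26 for Postn, 3.78 for Col3a1 and 7.93 or more for Pdgfra. The part of these markers in the values of this comparison was not tested. Oasl2 had levels of 0.328 on the array labelled G2KO, a dim value on the array labelled WT, 0.0436 on DKO and 0.10 on its WT, at least 45.8-fold apart in the first pair. Trim25 was higher by 3.42 on the log2 scale, Parp14 4.50-fold (levels of 0.0980, 0.0218, 0.0654 and 0.150) and Ifitm3 3.97-fold (14.2, 3.57, 27.3 and 18.6), and for Trim25, Parp14 and Ifitm3 the array labelled WT was the lowest of the 4. Ifit2 was 3.42-fold lower and had its highest level, 0.677, on the array labelled WT, against 0.184 to 0.338 on the others. Mx2, a GTPase gene, was dim on the array labelled G2KO and at 0.0144 to 0.0405 on the others. The array labelled G2KO lay at least 4.25-fold below its pair for Tap1 and at least 2.05-fold for Psmb9. H2-K1 and Tapbp were 2.78-fold and 2.02-fold higher, while the second H2-K1 probe had a log2 ratio of 0.44. In both this comparison and DKO over its WT, 4 of 38 genes were at least 2-fold apart in the same direction (Isg15, Ifitm1, H2-K1 and Trim25) and 4 in opposite directions (Oasl2, Psmb9, Tap1 and Parp14), against 2.14% and 5.29% of all genes.

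The array labelled G2KO was set against the other WT array as well. Of 39 genes, 3 were at least 2-fold higher and 14 lower than on the WT array of the DKO pair, against 4.32% and 4.86% of all genes, with a median log2 ratio of -0.59. Against both WT arrays at once, 2 of 41 genes were higher (Oasl2 and Rsad2) and 3 lower (Isg15, Mx2 and Bst2), against 1.58% and 0.611% of all genes. Over the 33 genes measured on all 4 arrays, the highest level fell on DKO for 16, on its WT for 13, on the array labelled WT in the G2KO pair for 4 and on the array labelled G2KO for 0. Over all 19466 genes measured on 4 arrays, these shares were 28.6%, 22.2%, 36.7% and 12.5%.

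The genes upstream of this response came next. Ifnb1, Ifna4, Ifng and Ifnk were dim on all 4 arrays. Ifna1, Ifna2, Ifna5 and Il28b were above background on all 4, at levels from 0.0510 to 0.212. Of 6 interferon genes compared in the DKO pair none passed 2-fold. Of 13 receptor and signalling genes, none was at least 2-fold higher in DKO and 1 was lower, namely Socs1, an inhibitor of JAK kinases, with levels of 0.738, 1.32, 0.160 on DKO and 0.866 on its WT (log2 ratio -2.44). The receptor chain Ifnar2 and the kinase Jak2 lay just under 2-fold higher in DKO. Among 12 compared genes of nucleic acid sensing, 2 were higher in DKO and none lower. For both lists these counts are to be read beside 10.6% higher and 9.61% lower over all genes. Tmem173 (STING), the adaptor for cytosolic DNA, had levels of 0.552, 0.143, 6.03 on DKO and 0.305 on its WT, a log2 ratio of 4.30, and Ikbke, a kinase downstream of it, had a log2 ratio of 2.20.

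Of 30 other interferon-stimulated genes compared in the DKO pair, 13 were at least 2-fold higher and 3 lower (10.6% and 9.61% of all genes), with a median log2 ratio of 0.70. The higher ones included Gvin1 (log2 ratio 2.91), Ifi47 (2.36) and Parp10 (2.07), and the lower ones were Gbp6, Apol9b and the chemokine Cxcl10. Between the WT arrays 14 of 28 were at least 2-fold higher in the DKO pair's WT and 3 lower (11.7% and 9.92% of all genes), with a median of 1.02. Of 16 other antigen presentation genes compared in the DKO pair, 3 were higher and none lower (10.6% and 9.61% of all genes), with 14 of 16 above 0. Those 3 were Psme1, a proteasome activator subunit (log2 ratio 1.14), Nlrc5, the transactivator of class I genes (1.13, levels of 0.0347, 0.0105, 0.0864 and 0.0394), and the class II gene H2-Eb1, which was dim on all arrays except DKO. Psme2 and H2-T23 had log2 ratios of 0.95 and 0.93. Ciita, the class II transactivator, had a log2 ratio of 0.85 and Cd74 one of 0.42.

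Promoter sequence was then set beside these values. RefSeq (GRCm38.p6) gave the 250 bases before and 50 bases after the start for 38 of the 48 genes. The ISRE was searched as GAAANNGAAA on both strands and was found in 18 of the 38 (47.4%), against 3.99% of 27025 genes and 3.44% of 32851 promoters of this length. The GAS motif TTCNNNGAA was found in 10 of the 38 (9.55% of genes) and the NF-kappaB motif GGGNNTTNCC in 4 (5.48% of genes). All 4 GTPases with a promoter in the table held the ISRE, namely Gbp2, Gbp3, Igtp and Irgm1. Of the antigen processing genes 1 of 8 held the ISRE in exactly these letters (B2m), while 3 of 8 held the NF-kappaB motif (B2m, H2-K1 and H2-D1). Of the genes at least 2-fold lower in DKO than in its WT, 5 of 8 with a promoter held the ISRE, and of those higher, 3 of 10.

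The windows below run 5′ to 3′ on the strand of the gene, with the ISRE in capitals, and are shown because these genes went in different directions in the DKO pair. Isg15 (chr4:156200855-156200916, minus strand), Ifit1 (chr19:34640765-34640833, plus strand), Ifit3 (chr19:34583353-34583436, plus strand), Gbp2 (chr3:142620584-142620633, plus strand) and Gbp3 (chr3:142559979-142560034, plus strand) were lower in DKO. Irgm1 (chr11:48871421-48871470, minus strand) and Oas1a (chr5:120907526-120907565, minus strand) were higher. In the windows of Isg15, Gbp3, Irgm1 and Oas1a the matches overlap.

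Isg15: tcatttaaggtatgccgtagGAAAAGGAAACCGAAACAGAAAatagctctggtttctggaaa
Ifit1: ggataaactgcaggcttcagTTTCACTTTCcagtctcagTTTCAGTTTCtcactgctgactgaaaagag
Ifit3: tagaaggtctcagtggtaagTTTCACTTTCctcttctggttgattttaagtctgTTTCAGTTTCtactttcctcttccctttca
Gbp2: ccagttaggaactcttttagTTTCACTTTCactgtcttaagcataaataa
Gbp3: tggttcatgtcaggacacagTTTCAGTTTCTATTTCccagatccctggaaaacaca
Irgm1: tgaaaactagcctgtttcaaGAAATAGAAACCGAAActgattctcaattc
Oas1a: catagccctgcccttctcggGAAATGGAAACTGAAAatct

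Gbp3 and Irgm1 each held 2 overlapping ISRE matches, and their log2 ratios in DKO over WT were -3.46 and 2.12. The class I heavy chain genes held the NF-kappaB motif, shown in capitals for H2-K1 (chr17:34000429-34000478, minus strand) and H2-D1 (chr17:35262903-35262952, plus strand).

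H2-K1: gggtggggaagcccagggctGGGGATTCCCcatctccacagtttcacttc
H2-D1: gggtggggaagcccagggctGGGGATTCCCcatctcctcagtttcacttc

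These windows are 50 bases long and nearly the same in H2-K1 and H2-D1, which were 7.38-fold and 4.38-fold higher in DKO than in its WT. Both windows end in the letters tttcacttc, which come close to the searched ISRE but do not match it. The search therefore does not show that these promoters lack an ISRE-like stretch. A match is a description of the letters only, and binding was not measured.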

How the data were processed

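Cy3-labelled RNA of MEFs was measured on 4 Agilent arrays of 1 slide. The deposited values are spot intensities (processed signals) that the authors extracted with Agilent Feature Extraction (10.7.3.1 in the file headers, 10.5.1.1 in the submitters' processing notes), background-corrected array by array and left unscaled. The deposited series table holds the same intensities. The labels describe single-color arrays for every sample, whereas the methods describe dye swaps for G2KO MEFs.

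Control spots and 107 to 140 outlier spots of 43020 per array were left out. Intensities were divided by their array's 75th percentile (a signal between 1586 and 2234), spots of a probe were averaged on the log2 scale, and the probe with the highest mean log2 level stood for a gene. Between 65.0% and 72.2% of 39397 probes were well above background, and 0 spots were saturated. The number of arrays, 1 per label, limits the precision, and spots of a probe measure only the spread within an array. The numbers 2 and 4 were used as fold thresholds. A limma fit with the WT arrays as 1 group was not run here. The genes, their roles and the other gene lists were chosen with earlier results of these data known. The genes named are the 48, with other probes where they disagree by over 1 on the log2 scale, and genes of 7 pathway and 6 cell type lists on which a result turns. The genes within 100 kb of Tap1 and the comparison with both WT arrays at once, also with the labels of the G2KO pair exchanged, were added after values were seen. Ratio code was tested on simulated data. Probe positions are those of the files (mm9), and GRCm38.p6 was used for promoter sequence only. Python 3.11.15, numpy 2.4.6 and pandas 2.3.3 were used, with limma 3.58.1 in R 4.3.3 for normexp. The 9 alternatives tried were median scaling, quantile normalization, no scaling, normexp background correction (offset 50), the mean over a gene's probes, probes above background on both arrays only, no floor, outlier spots kept, and the mean of both WT arrays as reference.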

Additional observations from a re-analysis of the deposited data

Results flagged for a closer look

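Among the 48 genes, 4 lay at least 2-fold apart in opposite directions in the array labelled G2KO and in DKO, each over the WT array of its own pair, out of 38 genes compared in both (5.29% of all genes), and 4 lay apart in the same direction (2.14% of all genes). With 1 array per label the difference between these comparisons was not tested, and the direction in the first rests on labels that are in doubt. Oasl2 had a log2 ratio of at least 5.52 on the array labelled G2KO and of -1.20 on DKO. Parp14 had 2.17 and -1.20. Tap1 had -2.09 or lower and 4.37 or higher. Psmb9 had -1.03 or lower and 2.53 or higher. The mesothelial markers that were detected on the DKO array were not all detected elsewhere (7 of 7 against 2 or 3 of 7), and their part in the values of Tap1 and Psmb9 was not tested.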

How the results depend on the processing

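No paired analysis was possible because each label has 1 array, and for the same reason no replicate could be left out. Counts were taken as unchanged within 1.5 times, medians and ratios within 0.2 on the log2 scale. On this measure 133 of the main counts and medians under the alternatives were unchanged and 27 were not. The count of genes at least 2-fold higher on DKO than on both WT arrays ran from 8 to 13 over the alternatives. Without scaling, which moved the median of all genes in the G2KO pair from -0.17 to 0.33, the array labelled G2KO had 15 genes higher and 2 lower than the array labelled WT with a median of 0.70, 0 lower than both WT arrays, and a median of -0.34 against the WT array of the DKO pair; the median between WT arrays was 1.06, and 3 genes were lower in DKO than on the array labelled WT in the G2KO pair. With normexp, genes at least 2-fold lower numbered 3 in the G2KO pair, 7 in the DKO pair, 1 between WT arrays and 3 for DKO over the array labelled WT in the G2KO pair, the medians of the last 2 were 0.57 and 0.75, and the array labelled G2KO exceeded both WT arrays for 1 gene and fell short of both for 1. Under quantile normalization the median of DKO over the array labelled WT in the G2KO pair was 0.90. With probes above background on both arrays only, 3 genes were lower in the G2KO pair, 1 between WT arrays, and 0 higher on the array labelled G2KO than on both WT arrays. With no floor the median of the DKO pair reversed to -0.10, that between WT arrays was 0.61, and 5 genes were lower on the array labelled G2KO than on both WT arrays. With both WT arrays averaged as the reference, the array labelled G2KO had 4 genes higher, 10 lower and a median that reversed to -0.28, and DKO had 7 lower and a median of 0.46. With that reference 3 of 38 ratios of single genes past 2-fold reversed, those of Ifit1 (0.016), Oasl2 (0.70) and Parp14 (0.19) in DKO, since those genes were dim or low on the other WT array. The cause of the other changes was not tested. Past 2-fold, signals near background leave only limits for Tap1, Psmb9, Oas1a, Oas2 and Xaf1 in the DKO pair.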
